A study of Mus musculus with 14 samples.

Results

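In mouse 3T3 cells, 164 poly(A) sites had an unusually large part of their reads in the ribosome-free fraction of a sucrose gradient. They were chosen from 16283 ends that had at least 100 reads over the 6 gradient fractions, out of 33590 ends listed. An end was taken when, after the authors' header factors had been divided out, the ribosome-free fraction held at least 20% of the end's summed fraction reads. Of these 164 ends, 128 also had a lower bound of at least 20% in the exact 95% binomial interval of that share. That interval rests on the reads that chose the ends, so it describes counting error and is no support for the choice. It was computed on raw reads and converted with the header factors, with the make-up of the other fractions held fixed. The other 16119 ends with at least 100 fraction reads are the background throughout. Members are called ribosome-free-rich ends here, which says only how they were chosen.

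The study measured how alternative 3' ends of one gene differ in stability and in translation. The libraries were made with 2P-Seq, a poly(A)-primed method that counts reads at the cleavage site. 3T3 is an established line of mouse embryonic fibroblasts. Single libraries came from cells kept for 1, 2, 4 or 8 h in actinomycin D at 10 µg/ml, 6 libraries came from the gradient fractions, and 2 were untreated controls. Libraries held between 1663346 reads, in the ribosome-free fraction, and 11575417 reads, in the heaviest fraction, and the controls held 5843403 and 6433503 reads. The 3P-Seq samples of the series, from 3T3 and from embryonic stem cells, were not analysed here. Ends were listed by chromosome, strand and mm9 position without gene names. No annotation or genome of that build was used, so no gene, exon, UTR or sequence is named for any end, and the cell line was not checked against marker genes. Whether these ends belong to untranslated RNAs or are internal ends of longer RNAs was not tested.

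Cleavage and polyadenylation set the 3' end of most mRNAs, and many genes use several such sites. A translated mRNA carries several ribosomes and sediments deep into a sucrose gradient, whereas RNA without ribosomes stays near the top, where untranslated noncoding RNAs and stored or repressed mRNAs are found. Actinomycin D binds DNA and blocks transcription, so that RNAs made before the block are followed as they are lost. A read count after the block is a share of what is left, so a stable RNA takes a growing share as others decay.

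The gradient values chose these ends, so they are given as a description with no test. The fraction columns are named by ribosome number as 0, 1, 2.5, 4.5, 7.5 and 12. The authors' deposited ribosomes per mRNA equalled the mean of these names, weighted by the scaled reads, for 30164 of 30164 ends. Across the fractions in that order, ribosome-free-rich ends had median shares of 31.5%, 21.9%, 17.1%, 8.02%, 5.21% and 5.95% of their scaled reads. Other ends had 3.86%, 6.57%, 18.6%, 17.8%, 17.9% and 25.3%. The share in fraction 1, which the rule did not set directly, thus stood at 21.9% in ribosome-free-rich ends and 6.57% in other ends, although all 6 shares add up to one whole. In the authors' deposited table, the median was 2.36 ribosomes per mRNA for ribosome-free-rich ends and 6.37 for other ends.

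**Figure D1:**
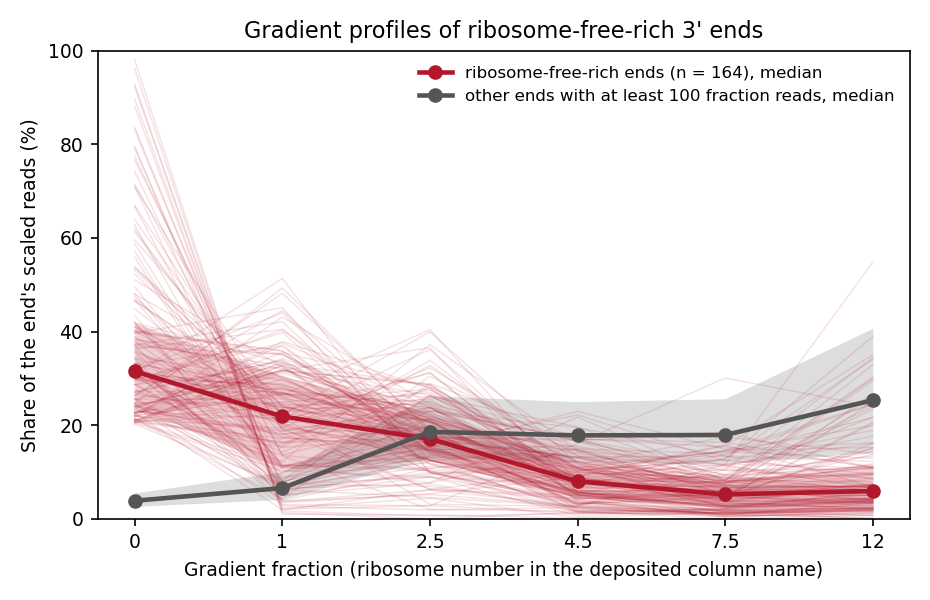
Share of each end's scaled reads (%) in the 6 gradient fractions, named by ribosome number; thin lines are the 164 ribosome-free-rich ends, thick lines are medians and bands run from the lower to the upper quartile. The median of ribosome-free-rich ends was 31.5% in fraction 0 and 5.95% in fraction 12, against 3.86% and 25.3% for other ends.

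The profiles were not all of one shape. The largest share lay in the ribosome-free fraction for 100 of the 164 ends, in fraction 1 for 38 and in fraction 2.5 for 17. It lay in fraction 12 for 7 ends, and in fractions 4.5 and 7.5 for 1 end each. Together, fractions 0 and 1 held at least 50% of the reads for 112 of the 164 ends, against 48 of the 16119 other ends. Fractions 4.5, 7.5 and 12 together held under 10% for 38 ribosome-free-rich ends, against 13 of the other ends. At the opposite extreme, those 3 heavy fractions held at least 50% for 11 ribosome-free-rich ends, against 86.8% of the other ends.

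Sizeable shares in the heaviest fraction were less common in the set than among other ends. The rule favours this as well, since a larger share in fraction 0 leaves less for the other fractions. The share in fraction 12 was at least 20% in 21 of the 164 ends (12.8%), against 60.4% of other ends. It exceeded those in fractions 4.5 and 7.5 in 52 ends (31.7%), against 49.1% of other ends, and in some of the 52 all of these shares were small. The end at 78775930 on the plus strand of chromosome 17 had 699, 113, 127, 333, 697 and 1332 reads from fraction 0 to fraction 12. Its scaled shares were 31.6% at the top and 35.0% at the bottom, with 3.44% in fraction 1. The end at 130105026 on the plus strand of chromosome 2 had 9035, 3187, 2087, 1623, 1825 and 6560 reads, or 48.0% in fraction 0 and 20.3% in fraction 12. Both of these ends were among the 21 and were picked for display after their values were seen. In contrast, the share declined at every step from fraction 0 to fraction 12 in 10 of the 164 ends.

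The ribosome-free share ran from 20.3% to 98.0%. It lay between 20% and 30% for 71 ends, between 30% and 50% for 62, and at 50% or more for 31. The 3 ends just inside the threshold, on chromosomes 14, 7 and 11 (9263707, 125252577 and 95353922), had 20.3%, 20.4% and 20.5%. The 3 just outside it, on chromosomes 4, 11 and 10 (39398808, 69496550 and 80645099), had 19.97%, 19.8% and 19.8%. No gap separated the ends taken from the ends left out.

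The highest share belonged to the end at 29136652 on the plus strand of chromosome 7. It had 335, 5, 3, 1, 0 and 0 reads from fraction 0 to fraction 12, a ribosome-free share of 98.0% with an exact 95% interval of 96.3% to 99.1%. The end at 130102109 on the plus strand of chromosome 2 had 246, 5, 0, 6, 5 and 1 reads and a share of 96.1% with an exact 95% interval of 93.8% to 97.7%. These intervals cover counting error only. The other 6 of the 8 highest shares were 92.8% (chromosome 17, 13115783, plus strand), 92.3% (chromosome 12, 16946928, plus), 89.7% and 88.2% (chromosome 16, 23111506 and 23111836, plus), 83.6% (chromosome 5, 72641983, plus) and 83.1% (chromosome 8, 73419649, minus). Most gradient reads of these 8 ends came from a single library, and each fraction was sequenced in 1 library.

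Ribosome-free-rich ends made up a large part of the lightest library. They took 24.97%, 11.2%, 4.18%, 2.04%, 1.603% and 1.55% of all reads in the fractions from 0 to 12. Without the 5 ends with the most reads, they still took 9.67% of the ribosome-free fraction. Over all ends, that fraction held 5.92% of the scaled reads.

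In the controls, ribosome-free-rich ends were about as abundant as other ends at the median and more spread upwards. Their median level was 17.6 CPM (reads per 1e6 reads of the library), with quartiles of 6.16 and 82.0, against 16.7 CPM with quartiles of 6.13 and 47.3 for other ends. The median was 18.7 CPM in control 1 and 18.9 CPM in control 2. Reads from all fractions per control read came to a median of 3.00 for ribosome-free-rich ends and 3.69 for other ends. Within the set, the ribosome-free share and the control level had a Spearman correlation of 0.0062 over 164 ends, given as a description of ends that share their libraries.

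Ribosome-free-rich ends were spread over 18 of 21 chromosomes. Ends on one strand that followed each other by at most 2000 nt were joined into one locus, and the 164 ends came from 130 loci. In 25 of these loci there were at least 2 ribosome-free-rich ends, and at most 4. Chromosomes 2 and 11 carried 18 ends each, 10.98% of the set, against 8.41% and 8.34% of other ends. Chromosome X carried 0 of the 164 ends, against 474 of the 16119 other ends (2.94%).

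Stability was not used by the rule and was tested. A slope on hours was fitted to the controls at 0 h and the 4 treated libraries, for all ends with at least 60 reads over these 6 libraries. Of the 164 ribosome-free-rich ends, 160 were tested and 4 had too few reads. With edgeR's quasi-likelihood test and an adjusted p under 0.05, 105 of the 160 rose on the trimmed-mean (TMM) scale, or 65.6%. Over all 16913 ends tested, 20.8% rose. That scale follows the typical end of each library, so a rise can be a slower loss than that of most ends. The end at 114544343 on chromosome 8 was called a rise (edgeR adjusted p 0.0412). It had 38 and 38 reads in the controls and 39, 27, 42 and 31 reads at 1, 2, 4 and 8 h. Only 4 of the 160 ribosome-free-rich ends fell, or 2.5%, against 28.2% of all ends tested and 30.3% of the tested ends with at least 100 fraction reads. The slope was above 0 in 134 of the 160 (83.8%), against 6585 of 15129 other ends (43.5%). Its median was 0.21 log2 units per hour for ribosome-free-rich ends and −0.04 for other ends. With 1 library per time and no stated separate cultures, p-values measure the scatter of 6 libraries around a straight line.

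The median level at 1, 2, 4 and 8 h was 1.07, 1.30, 1.58 and 1.68 times the control mean in ribosome-free-rich ends, on the CPM scale. Other ends had 0.931, 0.787, 0.639 and 0.445 times. After division by the authors' header factors the ribosome-free-rich medians were 1.12, 1.27, 1.43 and 1.35 times the control mean, and those of other ends were 0.971, 0.767, 0.574 and 0.358 times. So both scales put the median ribosome-free-rich end above its control level and the median other end below it. The scale did set how many ends were called. With the header factors, 41 of the 160 rose and 25 fell, against 459 and 8918 of all 16913 ends tested (2.71% and 52.7%). The median slope of all ends moved to −0.18 from −0.03 log2 units per hour. The median ribosome-free-rich slope was then 0.06.

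**Figure D2:**
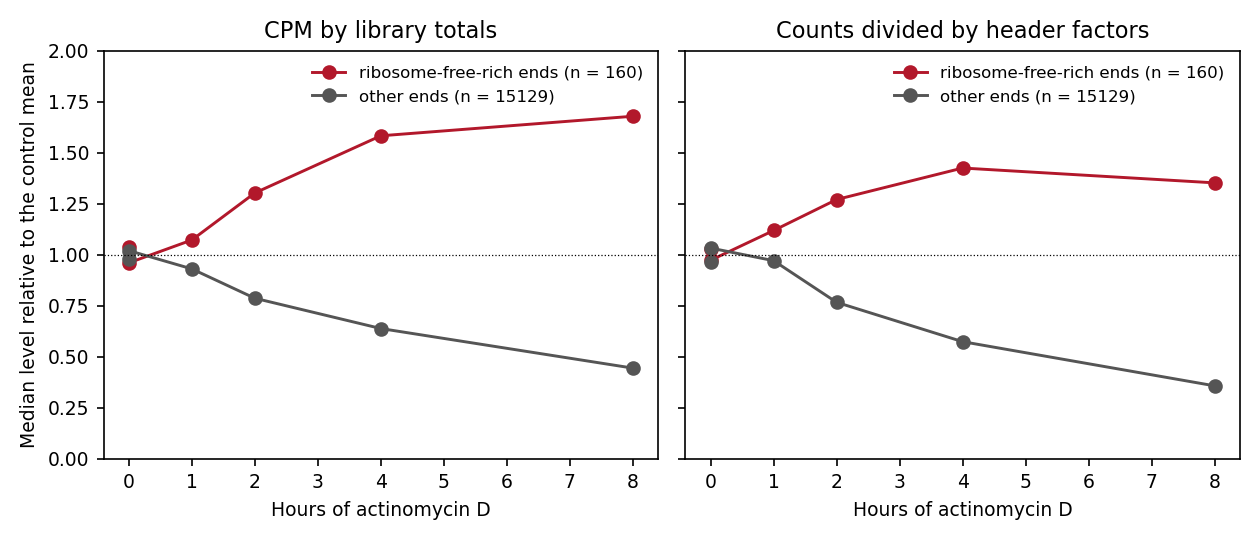
Median level relative to the mean of the 2 controls (y axis) against hours of actinomycin D (x axis), for 160 ribosome-free-rich ends and 15129 other ends, on the CPM scale (left) and after the authors' header factors (right). At 8 h the medians were 1.68 and 0.445 on the CPM scale, and 1.35 and 0.358 with the header factors.

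The share of reads in the set grew accordingly. Ribosome-free-rich ends took 3.69% and 3.41% of the reads in control 1 and control 2, then 4.07%, 5.07%, 5.95% and 7.40% after 1, 2, 4 and 8 h. The 8 h library gave the highest CPM of all 6 for 80 of the 164 ends, or 48.8%, against 11.5% of other ends. Within the set, rises were called in each range of the ribosome-free share. Among ends at 20% to 30%, 42 of 67 rose and 2 fell. At 30% to 50%, 44 of 62 rose and 2 fell, and at 50% or more 19 of 31 rose and 0 fell. With the header factors, falls were also called at 50% or more. The Spearman correlation of share and slope was 0.02 over 160 ends.

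The authors' deposited half-life gave the same order. Its median was 8.65 h in 140 ribosome-free-rich ends that had a half-life and passed the authors' read filter, with quartiles of 4.73 and 16.1 h. Other ends had a median of 2.90 h with quartiles of 1.62 and 5.01 h (n = 15297). These values rest on the same libraries as the slopes and are no separate evidence. They also carry an offset: for 143 of 143 ribosome-free-rich ends and 1000 of 1000 other ends drawn, the deposited value corresponded to the fitted exponential rate plus 0.1 per h, within 0.001 per h. An end with no loss at all therefore has a half-life of 6.93 h on this scale. In the authors' deposited table, 87 of the 143 ribosome-free-rich ends (60.8%) exceeded that value, against 13.6% of other ends, and 8 stood at the upper limit of 50 h.

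A missing half-life was more frequent in this set, at 21 of 164 ends against 0.986% of other ends. The header of the deposited table reads a missing value as too little coverage. All 21 of these ends had at least 67 reads over the 6 libraries and a fitted rate at or below −0.1 per h, that is, they grew over the course too steeply for the offset to turn the rate positive. Medians of the deposited half-life therefore leave out the ends that increased most.

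**Figure D3:**
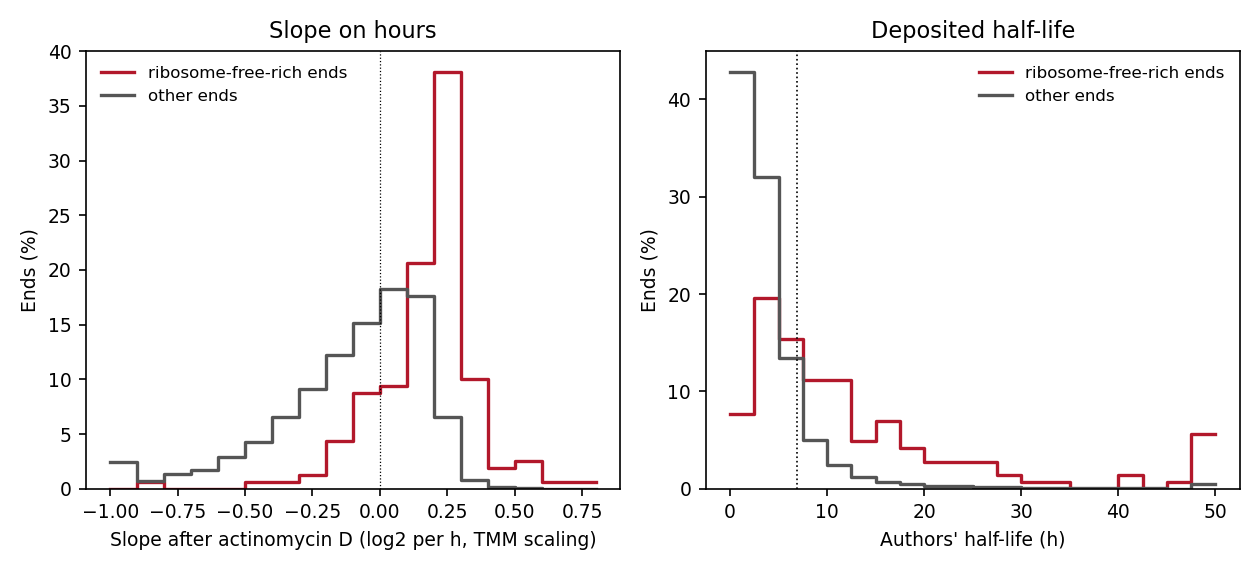
Distribution of the slope on hours (left, log2 units per hour) and of the authors' deposited half-life (right, h) in ribosome-free-rich ends and other ends, as a percentage of each set. The median slopes were 0.21 and −0.04, and the dotted line at right marks 6.93 h, the deposited value of an end with no loss.

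The 8 most abundant ribosome-free-rich ends all rose by the edgeR test, with 8 h levels of 1.41 to 2.42 times the control mean. For these ends and those named below, levels are in CPM, whereas slopes and calls are on the TMM scale. The TMM factors were 1.19 and 1.26 in control 1 and control 2 and 0.682 at 8 h, so the slopes run higher than the CPM levels show. The end at 13512033 on the plus strand of chromosome 7 had 6434 and 5626 CPM in the controls and 7458, 9668, 11247 and 14307 CPM at 1, 2, 4 and 8 h. Each treated library lay above both controls. Its ribosome-free share was 20.9%, its slope 0.27 ± 0.04 log2 units per hour (SE) and its edgeR adjusted p 0.000149. The end at 10059583 on the plus strand of chromosome 19 had a ribosome-free share of 58.8%, and its levels were 5000 and 4502 CPM in the controls and 5548, 7526, 7843 and 10689 CPM in the treated libraries. Its slope was 0.25 ± 0.03 (SE, edgeR adjusted p 0.000152). The one with the highest 8 h level relative to the controls, at 3761619 on the minus strand of chromosome 4, had 3663 and 3597 CPM in the controls and 4423, 5700, 6064 and 8793 CPM at 1, 2, 4 and 8 h. In the authors' deposited table its half-life was 24.0 h. The other 5 lay on chromosomes 11 (48619586 and 68718034), 19 (9052669), 9 (120040689) and 17 (24858873), all on the plus strand. With the header factors, the ends on chromosome 11 and those at 9052669 and 24858873 lost the call, with edgeR adjusted p-values of 0.0796, 0.185, 0.338 and 0.375.

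The 5 largest rises, chosen by slope, ended at 7.81 to 23.9 times the control mean. These folds depended on the control: they were 6.10 to 15.1 times control 1 and 10.8 to 84.3 times control 2. The 23.9 belonged to the end at 64026181 on chromosome 9, which had 14 and 4 reads in the controls and 7, 23, 65 and 146 reads at 1, 2, 4 and 8 h. The end at 36538656 on the minus strand of chromosome 15, with a ribosome-free share of 76.6%, had 640 and 276 CPM in control 1 and control 2 and 197, 807, 2435 and 4646 CPM at 1, 2, 4 and 8 h. The 1 h library lay below both controls and the later 3 above both. Its slope was 0.59 ± 0.12 log2 units per hour (SE, edgeR adjusted p 0.0118, and 0.0850 without the 8 h library). The end at 97639649 on the minus strand of chromosome 11 had 97 and 14 reads in the controls and 14, 182, 242 and 742 reads in the treated libraries. Its slope was 0.68 ± 0.16 (SE, edgeR adjusted p 0.0267). That call was lost when control 2, 4 h or 8 h was left out, with edgeR adjusted p-values of 0.0505, 0.0532 and 0.201, and also when ends of at least 1 read entered the fit, at 0.0519. The remaining 3 were a close pair on the plus strand of chromosome 9 (64026139 and 64026181, with slopes of 0.52 and 0.72) and the end at 76732023 on the minus strand of chromosome 12, with a slope of 0.56. All of these 5 had a higher level in control 1 than in control 2.

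That gap between the controls was more common in the set. Among ends with at least 100 control reads, control 1 exceeded control 2 more than 2-fold in 7 of 116 ribosome-free-rich ends (6.03%), against 0.843% of other ends. A level of at least 4 times the control mean at 8 h was reached by 13 of 160 ribosome-free-rich ends (8.13%), against 0.443% of other ends. When ends with more than a 2-fold gap between controls were left out, 93 of 138 ribosome-free-rich ends rose and 4 fell, 67.4% and 2.9% of them. No share of other ends under this cut is given.

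Falls were few, at 4 ends. The end at 53382082 on the plus strand of chromosome 9 had 46 and 67 reads in the controls and 16, 3, 6 and 0 reads at 1, 2, 4 and 8 h, with a slope of −0.81 ± 0.18 log2 units per hour (SE, edgeR adjusted p 0.00258). The end at 148483081 on the minus strand of chromosome 7 had 242 and 246 reads in the controls and 107, 64, 40 and 17 reads in the treated libraries, with a slope of −0.31 ± 0.06 (SE, edgeR adjusted p 0.00196). All treated libraries lay below both controls in these 2 ends. The other 2, at 56865458 on chromosome 7 and 5326339 on chromosome 10 (plus strand), had slopes of −0.22 and −0.18. The first lost its call without the 8 h library (edgeR adjusted p 0.104) and the second without control 2 (0.102) or the 4 h library (0.0607). Of these 4, 3 were ends with over 20% of their reads in fraction 12, at 29.5% (53382082), 24.4% (5326339) and 21.8% (56865458).

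The 8 ends with the highest ribosome-free share mostly stood above the control mean at 1 h, and no slope of theirs passed the edgeR threshold. Their median level, relative to the control mean, was 2.46, 2.10, 0.962 and 0.617 at 1, 2, 4 and 8 h. At 1 h, 7 of the 8 were above the control mean. The 1 h median was 1.07 times the control mean in all tested ribosome-free-rich ends and 0.931 times in other ends. The ends at 23111506 and 23111836 came from 1 locus, so the 8 are not all separate cases. Not all of the 7 were above both controls. The end at 13115783 had 21.8 CPM at 1 h, with 25.8 and 8.39 CPM in the controls. The end at 23111506 had 17.8 CPM, with 18.7 and 8.70 CPM in the controls. The end at 130102109 on chromosome 2 had 27 and 12 reads in the controls and 203, 141, 86 and 51 reads at 1, 2, 4 and 8 h. The end at 29136652 on chromosome 7 had 90 and 56 reads in the controls and 163, 129, 46 and 20 reads in the treated libraries, with its peak at 1 h as well. The end at 72641983 on chromosome 5 went the other way, with 154 and 171 reads in the controls and 15, 24, 8 and 7 reads in the treated libraries. The fitted model was a straight line on hours, and the edgeR adjusted p-values of the 8 slopes ran from 0.0522 to 0.775. With the header factors 3 of the 8 fell, at 29136652, 13115783 and 72641983 (edgeR adjusted p 0.0411, 0.00331 and 0.0135), against 52.7% of all ends tested on that scale. Control 1 was above the control mean in 6 of the 8 ends. The 1 h level has no replicate, since there was 1 library at 1 h.

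**Figure D4:**
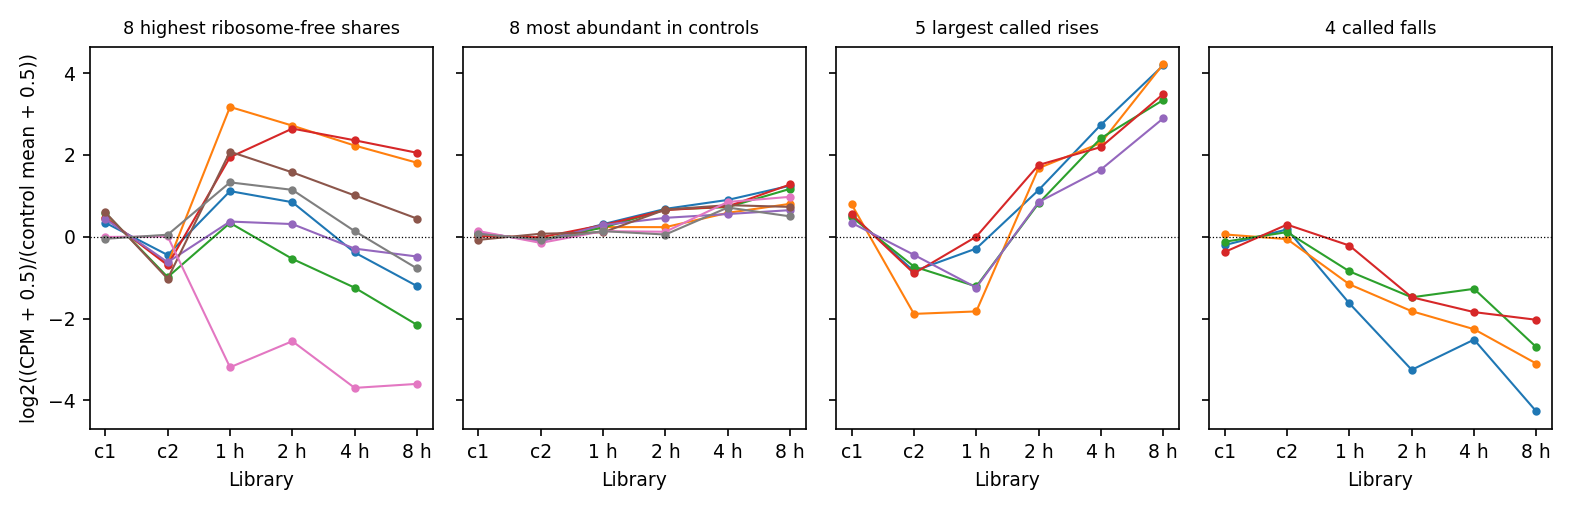
Level of single ends in control 1 (c1), control 2 (c2) and after 1, 2, 4 and 8 h of actinomycin D (x axis), as log2 of (CPM + 0.5) over (control mean + 0.5), in the 8 ends with the highest ribosome-free share, the 8 most abundant, the 5 largest rises and the 4 falls. In the first group 7 of 8 ends lay above the control mean at 1 h, with a median of 2.46 times, while the 5 largest rises reached 7.81 to 23.9 times the control mean at 8 h.

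Ribosome-free-rich ends were not set apart by how often another end lay close by. Within 2000 nt on the same strand, 112 of 164 (68.3%) had another listed end, against 75.3% of other ends. Of these 112, 43 had neighbours only downstream, 29 only upstream and 40 on both sides. As shares, 38.4% had neighbours only downstream and 25.9% only upstream, against 28.2% and 36.6% of other ends that had a neighbour. In 57 of the 112 ribosome-free-rich ends (50.9%) the end had more control reads than each of its neighbours, against 51.7% of other ends. Another ribosome-free-rich end lay within 2000 nt for 58 of the 164 (35.4%), whereas 56 of the 16119 other ends (0.347%) had a ribosome-free-rich end that close.

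The main neighbour of an end was the end with the most fraction reads among those within 2000 nt that had at least 100 of them, and 88 ribosome-free-rich ends had one. Under 100 nt, 28 of 36 main neighbours were ribosome-free-rich too. From 100 nt to under 500 nt, 16 of 29 were, and from 500 to 2000 nt 7 of 23. Many of these ends were each other's main neighbour: 26 of the 36, 14 of the 29 and 2 of the 23 stood in such a pair. With each pair counted once, 15 of 23, 9 of 22 and 6 of 22 pairs joined 2 ribosome-free-rich ends. The median gap in ribosome-free share between the ends of a pair was 5.59, 11.5 and 13.3 percentage points in these classes. A gap of at least 10 points was found in 5 of 23, 13 of 22 and 15 of 22 pairs. Neighbours with under 10% in the ribosome-free fraction numbered 0 of 36, 5 of 29 and 6 of 23. Since members were chosen for a high share, other ends give no fair comparison for these gaps.

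Within one locus, 4 ends differed most from their main neighbour. At 86397366 on the minus strand of chromosome 11, the end had 202, 28, 19, 10, 5 and 14 reads from fraction 0 to fraction 12 and a ribosome-free share of 79.2%. Its neighbour 831 nt upstream had 170, 411, 1117, 1716, 2017 and 1672 reads and a share of 3.79%. The ribosome-free-rich end thus lay downstream of an end with most of its reads in the heavier fractions. On chromosome 4, the end at 118972774 (minus strand) had 64, 29, 3, 4, 3 and 0 reads and 70.9%, against 6, 18, 20, 97, 116 and 59 reads and 3.21% at the end 170 nt downstream. Another end of that locus, at 118972827, had fewer fraction reads than the main neighbour and was ribosome-free-rich as well, with 53.8%. The end at 13115783 on chromosome 17 had 92.8%, against 14.7% at its neighbour 1640 nt downstream. The fourth pair joined 2 ribosome-free-rich ends of chromosome 16, with 89.7% at 23111506 and 25.4% at 23112539, 1033 nt downstream.

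**Figure D5:**
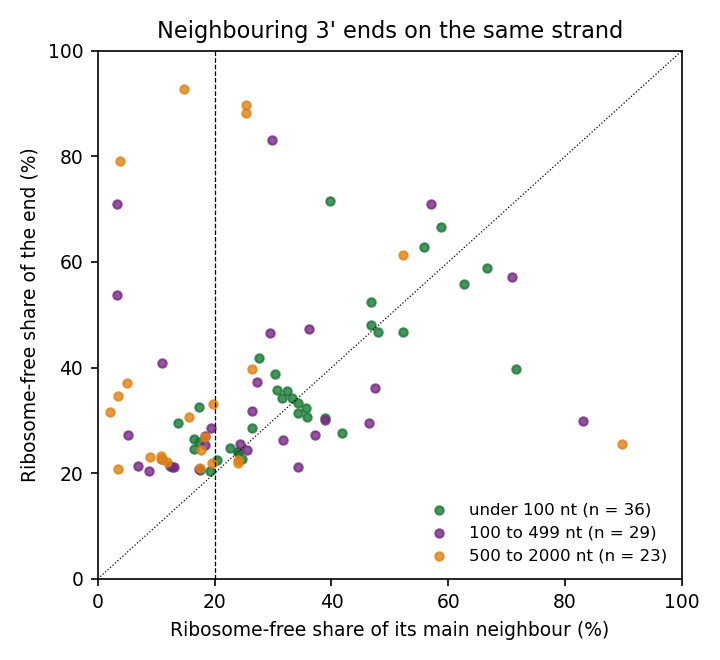
Ribosome-free share (%) of 88 ribosome-free-rich ends (y axis) against that of their main neighbour on the same strand (x axis), coloured by distance; the dashed line marks the 20% threshold and the dotted line equal shares. Under 100 nt, 28 of 36 neighbours lay at or above 20%, and from 500 to 2000 nt 7 of 23; ends that are each other's main neighbour appear as 2 mirrored points.

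Slopes after actinomycin D were also compared between the ends of a pair in the same libraries, where library scaling cancels. A pair was an end and the end within 2000 nt that had the most reads over these 6 libraries. Over all listed ends, 6237 pairs were tested and 3.58% differed (edgeR quasi-likelihood test of the end-by-hours term, adjusted p under 0.05). Of 58 pairs of a ribosome-free-rich end and another end, 6 differed, or 10.3%, 5 with the higher slope in the ribosome-free-rich end and 1 with the lower. The other end was any end outside the set, and some were outside only for their read number. Examples were 131908613 on chromosome 4 (ribosome-free share 100% on 17 fraction reads) and 164153721 on chromosome 1 (70.0% on 33). Others had a low share, such as 114543098 on chromosome 8 (3.48% on 898). The 58 pairs thus do not all set a ribosome-free-rich end against an end with a low share. An unadjusted p under 0.05 was found in 22 of the 58 pairs, against 1412 of all 6237 pairs (22.6%). The median difference in slope was 0.05 log2 units per hour, with the ribosome-free-rich end above in 34 of 58 pairs. Some ends, such as 39428213 on chromosome 1, stood in more than 1 of the 58 pairs, so these counts are not of separate loci. In 30 pairs of 2 ribosome-free-rich ends, 0 differed by edgeR, 6 had an unadjusted p under 0.05 (all pairs 22.6%), and 1 was called by DESeq2 (all pairs 7.86%). The 6 calls depended on single libraries. With the 8 h library left out, edgeR called 0 of the 58 pairs and 7 of all 6237. An unadjusted p under 0.05 was then found in 14 of the 58 pairs, against 914 of all 6237 (14.7%). Leaving out control 2 left 1 call, leaving out 1 h left 3 and leaving out 4 h left 2.

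The widest differences were those on chromosomes 12 (76732023 minus 76731582) and 8 (114544343 minus 114543098), at 1.64 ± 0.22 and 1.26 ± 0.15 log2 units per hour (SE, edgeR adjusted p 0.0164 and 0.00995). The neighbour at 76731582 had 71 and 98 control reads and 0 at 8 h, and that at 114543098 had 78 and 81 and then 0. The end at 76732023 went from 292 and 116 control reads to 1562 at 8 h. The end at 114544343 changed little, with 38 and 38 control reads and 31 at 8 h. On chromosome 16, the end at 23112539 had 58 and 97 reads in the controls and 86, 115, 94 and 141 reads at 1, 2, 4 and 8 h. Its neighbour at 23110582, 1957 nt upstream, had 13 and 16 reads in the controls and 17, 11, 6 and 0 reads. The difference in slope was 0.61 ± 0.12 (SE, edgeR adjusted p 0.0359). On chromosome 9, the end at 64026181 was the smaller of its pair: of the reads of both ends together it held 2.54% and 0.937% in the controls and 1.85%, 3.48%, 7.55% and 9.40% at 1, 2, 4 and 8 h, beside the end at 64026256 (difference 0.31 ± 0.07, SE, edgeR adjusted p 0.0434). The end at 64026256 had a ribosome-free share of 18.6% on 331 fraction reads, just under the threshold. The abundant end at 9052669 on chromosome 19 had a higher slope than its neighbour at 9052953, by 0.21 ± 0.04 (SE, edgeR adjusted p 0.0376).

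The one pair with the lower slope in the ribosome-free-rich end lay at 10059583 on chromosome 19. Its neighbour 771 nt upstream, at 10058812, had 16 and 10 reads in the controls and 1, 24, 73 and 178 reads at 1, 2, 4 and 8 h, so that both ends grew relative to all RNA and the neighbour grew more. The difference was −0.48 ± 0.10 log2 units per hour (SE, edgeR adjusted p 0.0419). That neighbour had 74.4% of its scaled reads in the ribosome-free fraction, on 43 fraction reads, and the neighbour at 23110582 had 92.7% on 40. Both were outside the set for their read number and not for their share.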

How the data were processed

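The deposited table held raw read counts for each poly(A) site in 2 control, 4 actinomycin D and 6 gradient libraries, and per the file headers the counts should be divided by the listed factors. Reads were aligned with Bowtie, per the submitters' processing notes, with version, read filters and pooling not given in the sources used here; coordinates are mm9, per the file headers. The authors' deposited half-life and ribosomes per mRNA were used as descriptions; their formulas are not given there and were checked numerically. The fraction columns could not be tied to single sample titles, so only their header names were used.

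Ends, lists and tests were chosen with earlier results of these data known. Named ends were the 8 highest shares, the 8 most abundant, the 5 largest called rises and falls (4 falls existed), up to 6 called pairs, 3 ends on each side of the threshold and the 4 widest neighbour differences. Slopes were fitted with edgeR 4.0.16 in R 4.3.3 (TMM, robust quasi-likelihood, at least 60 counts over 6 libraries, Benjamini-Hochberg over 16913 ends), and pairs with an end-by-hours term over 6237 pairs; TMM factors ran from 0.682 at 8 h to 1.26 in control 2. Scripts were tested on simulated data. DESeq2 1.42.0, other scalings and filters, and leaving out each library were alternatives. No library was dropped or imputed in the results given. No annotation of the mm9 build was used, so the planned gene lists, marker lists and sequence counts were not run.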

Additional observations from a re-analysis of the deposited data

How the results depend on the processing

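The count of 164 ends moved to 294 at a share of at least 15%, to 93 at 30% and to 78 with at least 500 fraction reads. With fractions scaled to library totals it was 2193, which still held all 164, since that scaling gives the shallow ribosome-free library as much weight as the others. The counts of 105 rises and 4 falls (all ends tested 20.8% and 28.2%) became 41 and 25 with the header factors (2.71% and 52.7%). They became 63 and 2 of 93 at a share of at least 30% (fewer ends by construction). With hours as ranks they were 106 and 7 (all ends tested 22.5% and 28.5%). Leaving out 1 library gave 87 to 103 rises and 3 to 5 falls, against 14.9% to 21.1% and 20.8% to 27.7% of all ends tested. Chosen after seeing the data, 1 end per locus gave 81 rises and 4 falls of 127, and ends with controls within 2-fold gave 93 and 4 of 138. For such subsets of the set, no share over all ends under the same cut is given. The 6 called pairs of 58 (all pairs 3.58%) became 14 with DESeq2 (all pairs 7.86%), 10 of 30 at 200 counts per end (all pairs 7.69%), and 0 of 36 with neighbours within 500 nt (edgeR, 12 at an unadjusted p under 0.05; over all pairs 4 of 4280 were called); leaving out 1 library gave 0 to 4. The median control level was 18.9 CPM without control 1 and 18.7 CPM without control 2. Among named ends, 366 of 402 slopes under an alternative stayed on the same side of the threshold, 22 lost and 14 gained the call and 0 reversed; of 56 pair differences, 30 lost it. Apart from these constructions, the cause of each change was not tested. No paired analysis was possible because each treatment time has 1 library and shares no 2 replicate numbers with the controls. Depth was lowest in the ribosome-free library.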
